A study of Mus musculus with 24 samples.

Results

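Voltage-gated sodium channels open when a neuron depolarises and carry the rising phase of the action potential. Their pore is formed by an alpha subunit, and smaller beta subunits alter its gating and its place in the membrane. HCN channels open when the membrane hyperpolarises and pass a slow inward current that sets resting excitability and pacemaking. Both families are studied in epilepsy, since alpha subunits are targets of antiseizure drugs and carry mutations in genetic epilepsies.

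The genes described are 8 of the 53379 in the deposited count table, taken by symbol: the alpha subunit genes Scn1a, Scn2a, Scn3a and Scn8a, the beta subunit genes Scn2b and Scn3b, and the HCN channel genes Hcn2 and Hcn4. All 8 passed the filter on low counts. They were compared between kainic acid (KA) and saline (SH) injection in neurons and in glia, and between neurons and glia in either treatment.

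The mice were adult male C57/BL6N mice, which arrived at 8 weeks of age and were kept for 4 weeks before surgery. KA mice received 70 nl of 20 mM kainic acid into the deep cortex next to the hippocampus, and those without convulsive seizures were excluded. SH mice received saline (0.9% NaCl), and both groups had medetomidine and ketamine anaesthesia and buprenorphine. Right hippocampi were taken 24 hours later, in 3 pools per treatment (4 mice in pool 1, 2 mice in pools 2 and 3), and nuclei of each pool were sorted by NeuN into NeuN+ nuclei (neurons) and NeuN- nuclei (glia). The 12 libraries therefore hold nuclear RNA of 4 groups with 3 pools each (n = 3 throughout). Pools 1, 2 and 3 are separate mice, while neurons and glia of a pool are the same mice.

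Total counts ranged from 7769400 to 40364768 per library. Amplification started from about 0.05 ng RNA with 15 cycles in SH glia 1 and KA glia 2, and from 1 ng with 10 cycles in the other libraries. The libraries numbered 3 stood apart, with the lowest TMM factor (0.66 to 0.85) and the fewest genes with a count (36165 to 42160) of each group. The neuronal list (15 genes, all tested) summed to 6786 to 10676 CPM in neurons and to 619 to 2318 CPM in glia, where 12 of the 15 genes were called higher in neurons in SH and 14 in KA. Rbfox3, which encodes NeuN, had 161 to 274 CPM in neurons and 17.7 to 56.9 CPM in glia. Of the 81 marker genes, S100a8, a leukocyte gene, was the only one at 0 in a whole group (SH glia). Levels are given as CPM (counts scaled to library size with TMM factors), logFC is a log2 difference between groups, and FDR is the Benjamini-Hochberg adjusted p of edgeR's quasi-likelihood test over the 37598 genes tested.

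The genes lie on 4 chromosomes (GRCm38, GENCODE M21). Scn3a (ENSMUSG00000057182, chr2:65457118-65567627, minus strand), Scn2a (ENSMUSG00000075318, chr2:65620771-65767447, plus strand) and Scn1a (ENSMUSG00000064329, chr2:66270778-66440840, minus strand) are neighbours in the sodium channel cluster of chromosome 2. Scn8a (ENSMUSG00000023033) lies at chr15:100869858-101045938 on the plus strand. Chromosome 9 carries Scn3b (ENSMUSG00000049281, chr9:40269217-40291618), Scn2b (ENSMUSG00000070304, chr9:45117782-45130070) and Hcn4 (ENSMUSG00000032338, chr9:58823412-58863175), all on the plus strand. Hcn2 (ENSMUSG00000020331) lies at chr10:79716634-79736108 on the plus strand. In GENCODE M21 no exon base of the 8 genes overlaps an exon of another gene. The counts were made on GENCODE M16, ignoring strand and dropping reads over more than 1 gene, and overlaps in that annotation were not tested.

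Promoter windows of 300 bases (250 before and 50 after a RefSeq start, GRCm38.p6) were found for 6 of the 8 genes, in 8 windows. Hcn2 and Hcn4 had windows with 72.3% and 71.7% G or C, against a median of 52.7% over 32841 windows. Those of Scn1a and Scn2b had 47.3% and 38.3%. The windows of Scn2a had 33% and 47.7%, and those of Scn8a 70% and 53.3%, so that not every sodium channel window was low. The Scn8a window with 70% held 38 CpG, against 26 in that of Hcn2 and 31 in that of Hcn4. The letters GGGCGG, the GC box that SP1 binds, were searched on both strands and stood in 35.7% of all windows, in those of Hcn2 and Hcn4, and in none of the 6 windows of Scn genes. TATAAA, the TATA box, stood in 13.6% of all windows and in 1 window of Scn2a. No window of the 8 held TTCAGCACC, a part of the REST site (in 0.371% of all windows), the CRE TGACGTCA (1.79%) or the AP-1 site TGANTCA (7.81%). With 8 windows, no difference from the shares over all windows, or between HCN and sodium channel genes, was tested. Of the matches in the Hcn2 window 1 is shown, with both of Hcn4 and that of Scn2a. They are given on the plus strand, with the match in capitals (the GC box reads CCGCCC where it lies on the other strand).
Hcn2, chr10:79716588-79716613: acccccggctCCGCCCtccctcgggc
Hcn4, chr9:58822743-58822768: tggcgaggttCCGCCCtgcgcccctc
Hcn4, chr9:58822776-58822801: ccggccccctCCGCCCccctctatgt
Scn2a, chr2:65668592-65668617: tagtggcagtTATAAAaatgtcactt
A match of letters is a description of the window and not a measured binding site.

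The first comparison asks where the channel genes are expressed. In SH mice all 6 sodium channel genes were higher in neurons and Hcn2 was higher in glia, while Hcn4 did not pass the test (FDR threshold 0.05, at which 10.7% of all genes were called, 6.05% higher and 4.67% lower in neurons). The median logFC of the 8 genes was 2.13, against 0.01 over all genes tested. After KA the same 6 genes were higher in neurons and none lower, where 9.86% of all genes were called (5.88% higher and 3.98% lower). There the median was 2.25, against -0.24 over all genes.

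Levels between genes were compared per kilobase of exon. In SH neurons Scn3b had the highest level, 85.5 ± 30.5 CPM per kb (SD, n = 3), above Scn2a with 34.8 ± 4.04. Scn8a (25.4 ± 12.8), Scn1a (22.7 ± 4.26), Scn3a (17.5 ± 3.69), Hcn2 (17.5 ± 4.17) and Scn2b (11.5 ± 3.57) followed, and the libraries of each overlapped those of its neighbour in this order. Hcn4 was lowest, at 0.53 ± 0.42. In SH glia the order began with Hcn2, 39.1 ± 8.46 CPM per kb, then Scn3b with 13.1 ± 7.75. The 4 alpha subunits had 4.40 to 7.29 and Scn2b 2.76 ± 1.43 CPM per kb in SH glia, and Hcn4 0.56 ± 0.27.

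Among alpha subunits, Scn2a, which encodes the channel of early axons and of excitatory neurons, had 385, 463 and 482 CPM in SH neurons and 37.0, 124 and 117 CPM in SH glia. Its logFC between neurons and glia was 2.25 (standard error 0.48, FDR 0.00514). Scn8a, which encodes the main channel of the mature axon initial segment and of nodes, had 212, 379 and 612 CPM in SH neurons and 36.6, 101 and 121 CPM in SH glia (logFC 2.21, standard error 0.53, FDR 0.0113). Scn8a differed most between SH neuron libraries among the sodium channel genes. For Scn1a, the alpha subunit known best from inhibitory interneurons and Dravet syndrome, the values were 282, 198 and 279 CPM in SH neurons and 31.6, 67.0 and 48.5 CPM in SH glia (logFC 2.37, standard error 0.37, FDR 0.000554). Scn3a, known as the alpha subunit of the developing brain, had 249, 166 and 242 CPM in SH neurons and 52.7, 62.0 and 73.9 CPM in SH glia. With 1.80 (standard error 0.33, FDR 0.00208) its logFC was the smallest of the 6 sodium channel genes.

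Of the beta subunits, Scn2b, whose product binds alpha subunits through a disulfide bond, had 54.7, 36.5 and 69.6 CPM in SH neurons and 6.91, 11.5 and 20.1 CPM in SH glia (logFC 2.05, standard error 0.40, FDR 0.0028). Scn3b, whose product binds alpha subunits without such a bond, had 355, 387 and 658 CPM in SH neurons and 23.9, 86.0 and 105 CPM in SH glia (logFC 2.70, standard error 0.53, FDR 0.0028). For each of the 6 sodium channel genes the neuron libraries lay above the glia libraries in SH and in KA, as they did for 14.1% and 15.3% of all genes tested. After KA the logFC between neurons and glia ranged from 1.69 (Scn3a) to 2.78 (Scn3b), with FDR between 0.000809 and 0.00742. These values do not pair neurons and glia of a pool. With the pool as a block the logFC ranged from 1.79 (Scn3a) to 2.89 (Scn3b) in SH, with FDR between 2.07e-05 and 7.53e-05. In KA it then ranged from 1.71 (Scn3a) to 2.84 (Scn3b), with FDR between 9.76e-06 and 7.04e-05. Over all genes that fit called 5322 higher in neurons in SH and 5289 in KA.

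Hcn2, which encodes a fast, cyclic AMP sensitive HCN channel of pyramidal neurons and thalamus and has been described in oligodendrocytes, went the other way. It had 43.4, 54.2 and 69.9 CPM in SH neurons and 121, 99.8 and 154 CPM in SH glia, and the libraries did not overlap (8.57% of all genes lay lower in neurons in this way). The logFC was -1.16 (standard error 0.35, FDR 0.0427). After KA the values were 48.3, 47.7 and 53.5 CPM in neurons and 85.2, 55.4 and 124 CPM in glia, still without overlap (9.84% of all genes), with a logFC of -0.82 (standard error 0.35, FDR 0.195). With the pool as a block Hcn2 passed the threshold in KA as well, with a logFC of -0.75 (FDR 0.0271; 6.65% of all genes were lower in neurons in that fit). In SH the call was lost without any 1 of SH glia 2, SH glia 3 or the 3 SH neuron libraries, where the FDR of Hcn2 reached up to 0.196.

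Hcn4, which encodes the slow HCN channel known from the sinus node and thalamus, had few counts, with 13, 141 and 75 counts in SH neurons and 35, 108 and 73 in SH glia. That is 0.79, 5.94 and 3.06 CPM and 2.81, 5.26 and 2.18 CPM, which overlap (logFC -0.06, standard error 0.65, FDR 0.988). After KA it had 2.56, 9.02 and 5.996 CPM in neurons and 6.43, 13.8 and 12.4 CPM in glia, which overlap as well (logFC -0.89, standard error 0.65, FDR 0.616).

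**Figure D1:**
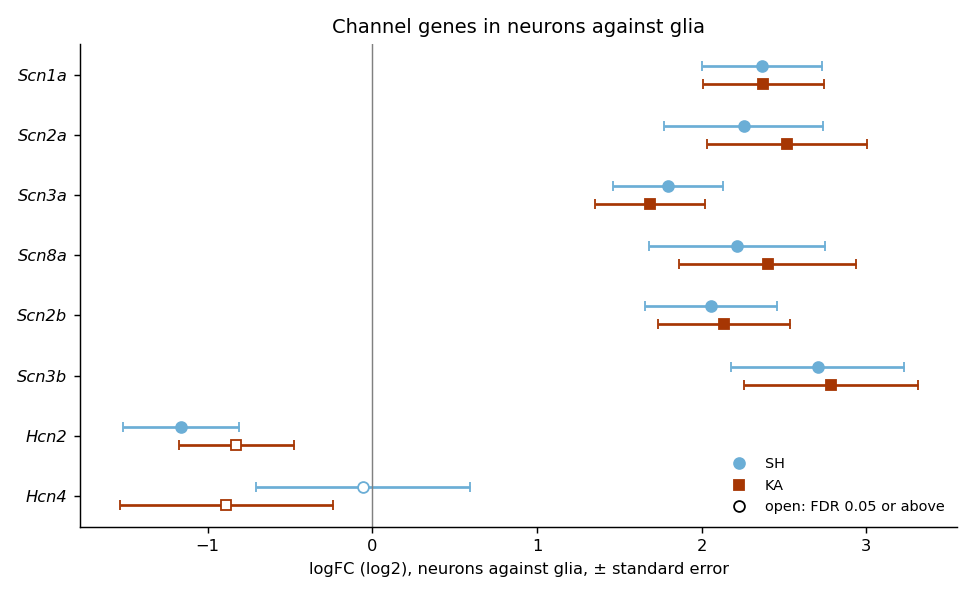
The logFC between neurons and glia (log2, horizontal axis) is shown for the 8 genes in SH (circles) and KA (squares), with bars for 1 standard error; open symbols have an FDR of 0.05 or above. The 6 sodium channel genes sit between 1.69 and 2.78, Hcn2 sits at -1.16 in SH and -0.82 in KA, and Hcn4 at -0.06 and -0.89.

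The level in glia was also taken as a percentage of the level in neurons of the same pool. For the 6 sodium channel genes the median over the 6 pools lay between 14.7% (Scn3b) and 29.2% (Scn3a). The median over the 15 neuronal markers was 21.8% (10.98% to 29.8% in single pools), and the sodium channel genes lay in the range of these markers. Tubb3 had the highest median of these markers, 97.4%, and was above 100% in 3 pools. Hcn2 had 202% (116% to 279%) and was above 100% in all 6 pools. Hcn4 had 180% (71.2% to 358%). Whether sodium channel RNA in glia libraries came from glia or from neuronal RNA in that fraction was not tested.

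**Figure D2:**
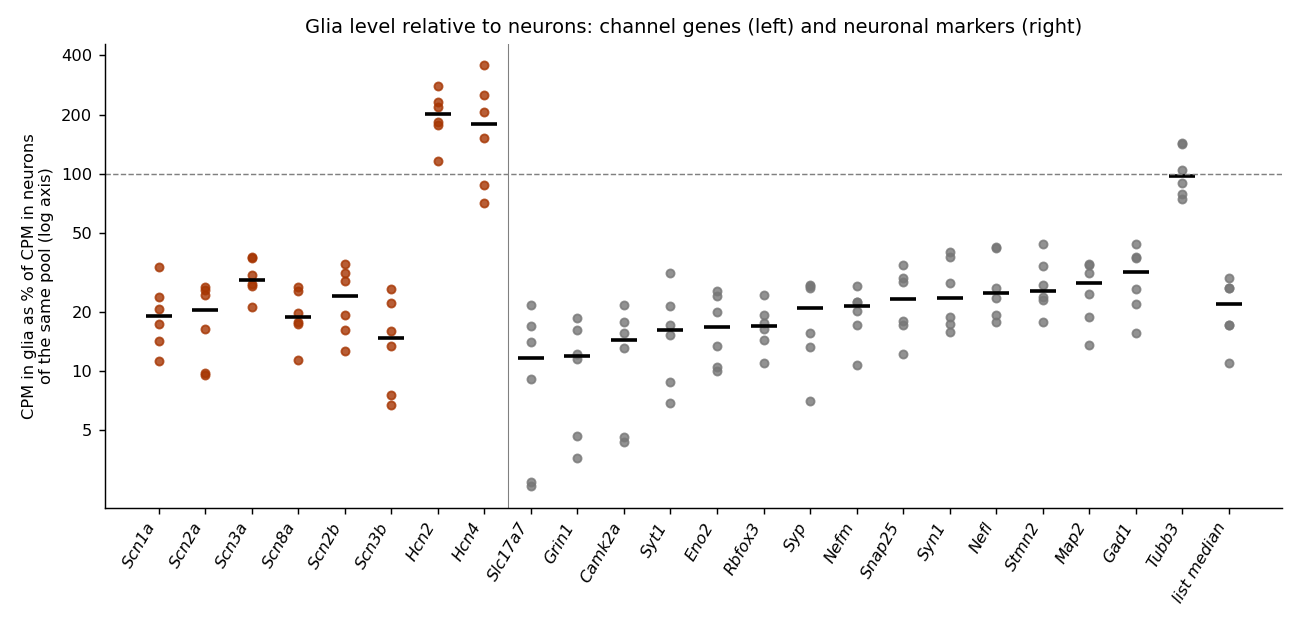
Each dot is the CPM of a gene in glia as a percentage of its CPM in neurons of the same pool (6 pools, log axis), the black bar is the median, and the dashed line marks equal levels. The sodium channel genes sit among the neuronal markers, with medians of 14.7% to 29.2% against a list median of 21.8%, while Hcn2 sits at 202% and Hcn4 at 180%.

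Removing libraries changed how many sodium channel genes passed the test between neurons and glia. Without KA glia 1 or without KA glia 2, only Scn1a passed in KA (1 of 6). Over all genes, those fits called 407 and 482 higher in neurons, against 2211 with all libraries. Without both low-input libraries, Scn1a alone passed in SH, and Scn1a, Scn2a, Scn2b and Scn3b passed in KA. There 361 of all genes were called higher in neurons in SH and 815 in KA, against 2276 and 2211 with all libraries. Without SH glia 1 or SH neurons 3, Scn8a was lost in SH, where 804 and 1176 of all genes were called higher. Each logFC of the 6 genes stayed positive under every alternative, between 1.35 (Scn3a in SH) and 3.23 (Scn3b in KA).

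The main comparison asks what KA changed after 24 hours. In neurons none of the 8 genes passed an FDR of 0.25, as 0.34% of all genes tested did. By unadjusted p below 0.05 there was 1, Scn3b, where 3.2% of all genes had such a p. The logFC was negative for 7 of the 8 genes, against 49.96% of all genes. Its median was -0.35, against 0.00 over all genes. All KA values of Scn1a, Scn2a and Scn3b were under all SH values, in 3 of 8 genes, while 4.45% of all genes lay lower in this way. In pairs of the same pool number, 5 genes were lower in KA in all 3 pairs, against 13.8% of all genes, and Hcn4 was higher in all 3, as were 17.3% of all genes.

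In glia none of the 8 passed the threshold either, against 0.747% of all genes. By unadjusted p below 0.05 there were Scn3b and Hcn4, where 4.79% of all genes had such a p. The median logFC over all genes was 0.14, or -0.04 over genes with at least 10 counts in every library. Again 7 of 8 genes had a negative logFC, against 41.4% of all genes, and their median was -0.53. The neuronal list shared this in glia, with a median of -0.45 and 13 of 15 genes negative. In neurons that list had a median of 0.01 and 7 of 15 genes negative. Hcn4 was the 1 gene whose KA libraries all lay above the SH libraries, as 3.61% of all genes did, and no member lay wholly below, as 3% of all genes did. In pairs of the same number, 6 genes were lower in KA in all 3 pairs (14.3% of all genes) and Hcn4 was higher in all 3 (19.3%).

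Libraries of the same pool number deviated together, so the comparison was also fitted with that number as a block. With the block, Scn3b was downregulated in neurons, where 1.11% of all genes were called lower. In glia Scn3b was downregulated and Hcn4 upregulated, where 4.17% of all genes were called lower and 3.47% higher. The other members did not pass the threshold with the block in either cell type.

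**Figure D3:**
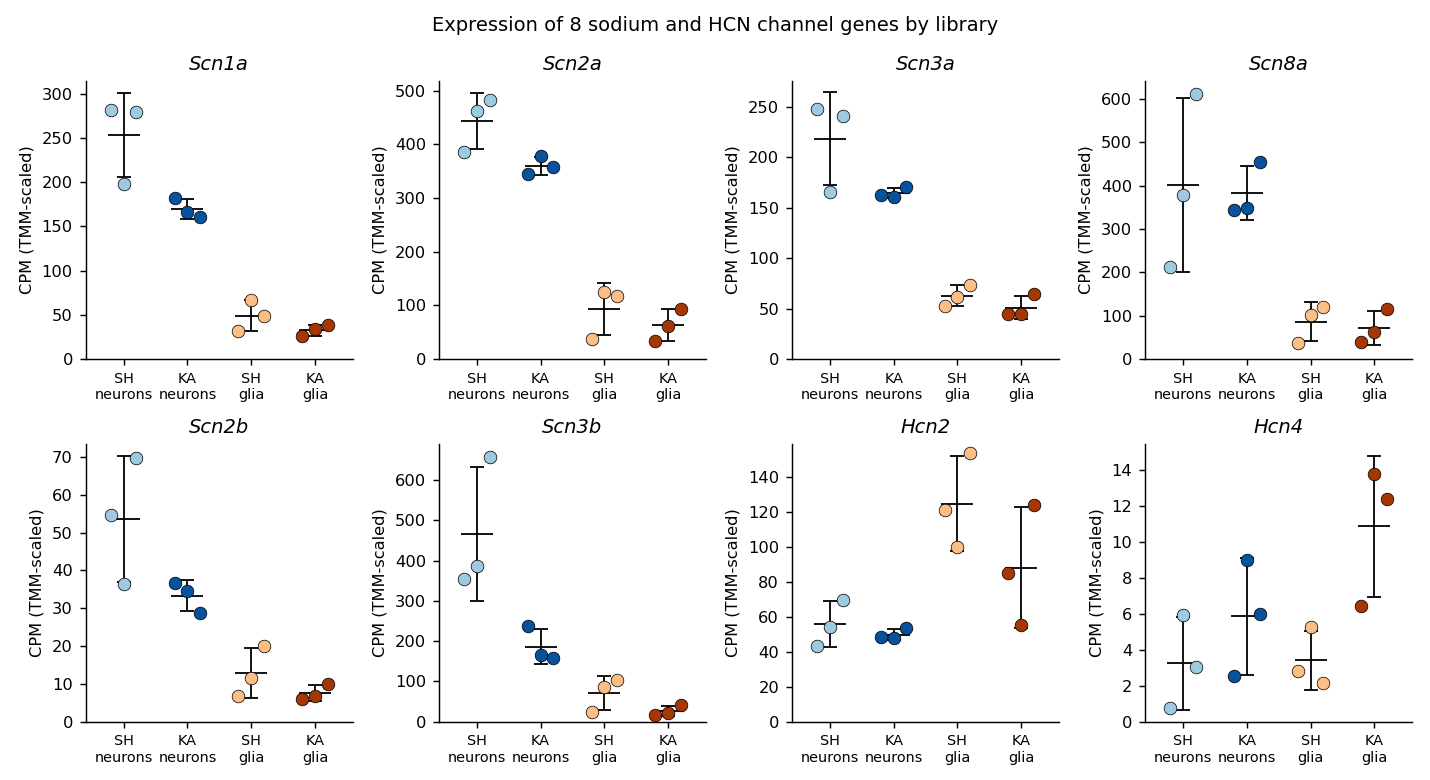
CPM of the 8 genes in each of the 12 libraries, by group (3 dots per group, pools 1 to 3 from left to right), with the group mean and SD as bars. Scn3b lies at 355 to 658 CPM in SH neurons and at 158 to 237 CPM in KA neurons, Hcn4 sits higher in KA glia than in SH glia, and Hcn2 sits higher in glia than in neurons.

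Scn3b had the largest difference of the sodium channel genes in either cell type. In neurons it had 355, 387 and 658 CPM in SH and 237, 165 and 158 CPM in KA, and the groups did not overlap. The mean was 467 ± 167 CPM in SH and 187 ± 44.0 CPM in KA (SD, n = 3). This gave a logFC of -1.32 (standard error 0.50, FDR 1.00). With the replicate block the logFC was -1.29 (standard error 0.30, FDR 0.0362), and with a model of the neuron libraries alone it was -1.29 (FDR 0.0944). The model of the neuron libraries alone called 247 of 32012 genes lower. KA stood at 66.7%, 42.6% and 24.0% of SH in the 3 pairs. The pair numbered 3, whose libraries stood apart, had the lowest percentage. Without the libraries numbered 3, a setting chosen after the data were seen, the logFC was -0.88 and the FDR 1.00. With single libraries left out it was between -1.53 and -0.99, and it passed in none of these 6 fits.

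In glia Scn3b had 23.9, 86.0 and 105 CPM in SH and 17.9, 22.2 and 41.1 CPM in KA, which overlap through SH glia 1, a low-input library. The logFC was -1.40 (standard error 0.50, FDR 0.665). With the block it was -1.26 (standard error 0.30, FDR 0.03). Scn3b also passed in DESeq2 (FDR 0.114), with at least 10 counts in every library (FDR 0.17) and without SH glia 1 (FDR 0.213). Over all genes these fits called 645, 760 and 56 lower, of 37598, 18632 and 40720 tested. The difference of the KA effect between neurons and glia was 0.08 (standard error 0.70, FDR 1.00), so that no difference between the cell types was detectable. The neuronal list summed to 771, 2026 and 2318 CPM in SH glia 1, 2 and 3 and to 619, 1146 and 2130 CPM in KA glia 1, 2 and 3. The fit without SH glia 1 thus leaves out the SH library with the lowest neuronal sum. The part of neuronal RNA in the glia value was not tested.

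Set against the alpha subunits of the same library, Scn3b also stood lower. Its level per kilobase was 73.2%, 77.4% and 99.5% of the summed level of Scn1a, Scn2a, Scn3a and Scn8a in SH neurons, and 55.5%, 37.9% and 34.0% in KA neurons. In glia it was 35.6%, 57.9% and 70.6% in SH and 29.9%, 26.2% and 32.4% in KA. The groups did not overlap in either cell type, and this ratio uses no scaling between libraries. It is given as a description, since Scn3b was singled out after its values were seen. The same percentage for Scn2b overlapped, with 13.2%, 8.56% and 12.3% in SH neurons and 10.0%, 9.33% and 7.25% in KA neurons.

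Scn2b had 54.7, 36.5 and 69.6 CPM in SH neurons and 36.6, 34.6 and 28.7 CPM in KA neurons, where KA neurons 1 just exceeded SH neurons 2. Its logFC was -0.69 (standard error 0.39, FDR 1.00) in neurons. In glia it had 6.91, 11.5 and 20.1 CPM in SH and 5.91, 6.69 and 10.0 CPM in KA, a logFC of -0.77 (standard error 0.39, FDR 1.00), which was -0.29 without SH glia 3. KA was lower than SH in all 3 pairs in both cell types.

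Among alpha subunits, Scn1a had 282, 198 and 279 CPM in SH neurons and 182, 166 and 160 CPM in KA neurons, which did not overlap. The logFC was -0.58 (standard error 0.35, FDR 1.00), and -0.56 with the block (FDR 0.47). In glia Scn1a had 31.6, 67.0 and 48.5 CPM in SH and 25.7, 34.2 and 38.0 CPM in KA, a logFC of -0.59 (standard error 0.35, FDR 1.00). KA libraries of Scn1a were closer together than SH libraries in both cell types.

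For Scn2a, the values in neurons were 385, 463 and 482 CPM in SH and 344, 378 and 358 CPM in KA. These did not overlap, but the difference was small against the spread the model estimates, with a logFC of -0.30 (standard error 0.46, FDR 1.00). In glia it had 37.0, 124 and 117 CPM in SH and 33.6, 62.1 and 92.7 CPM in KA (logFC -0.56, standard error 0.46, FDR 1.00).

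Scn3a had 249, 166 and 242 CPM in SH neurons and 163, 161 and 171 CPM in KA neurons, so that KA lay at the level of SH neurons 2 (logFC -0.41, standard error 0.32, FDR 1.00). In glia the values were 52.7, 62.0 and 73.9 CPM in SH and 44.2, 44.5 and 64.5 CPM in KA (logFC -0.30, standard error 0.33, FDR 1.00).

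Scn8a gave the smallest difference of the alpha subunits. It had 212, 379 and 612 CPM in SH neurons and 343, 349 and 455 CPM in KA neurons (logFC -0.07, standard error 0.51, FDR 1.00), and 36.6, 101 and 121 CPM in SH glia and 38.9, 62.4 and 116 CPM in KA glia (logFC -0.25, standard error 0.51, FDR 1.00). Its direction in neurons was positive with the block (0.05). All KA neuron values lay inside the range of SH neurons, 212 to 612 CPM.

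The make-up of the alpha subunits overlapped between SH and KA. Of their summed level per kilobase, Scn2a took 35.0% ± 4.33 in SH neurons and 35.0% ± 2.13 in KA neurons (SD, n = 3). Scn8a took 24.5% ± 8.64 and 29.9% ± 3.49, Scn1a 22.9% ± 4.83 and 18.8% ± 1.95, and Scn3a 17.6% ± 4.20 and 16.3% ± 0.32. Each difference of means was smaller than the SD of the SH pools. For Scn1a 2 of the 3 KA values, 18.7% and 16.9%, lay below the lowest SH value of 19.5%. The sum itself was 88.9, 91.5 and 121 CPM per kb in SH neurons and 78.2, 79.6 and 85.1 in KA neurons. These sums did not overlap, and their difference was not tested. In glia the sums overlapped, with 12.3, 27.2 and 27.2 CPM per kb in SH and 11, 15.5 and 23.2 in KA.

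Hcn2 had 43.4, 54.2 and 69.9 CPM in SH neurons and 48.3, 47.7 and 53.5 CPM in KA neurons (logFC -0.17, standard error 0.35, FDR 1.00). In glia, where its level was higher, it had 121, 99.8 and 154 CPM in SH and 85.2, 55.4 and 124 CPM in KA, lower in all 3 pairs at 70.3%, 55.6% and 80.8% of SH. The groups overlapped, and the logFC was -0.50 (standard error 0.35, FDR 1.00), or -0.55 with the block (FDR 0.293). The oligodendrocytic list (8 genes) summed to 14181 to 29617 CPM in SH glia and to 7466 to 14058 CPM in KA glia, and the list of oligodendrocyte precursors (OPC, 5 genes) to 926 to 1581 and 433 to 722 CPM. None of the oligodendrocytic genes and 1 of the precursor genes passed the test between KA and SH in glia. The part of these lists in the level of Hcn2 was not tested. In bulk nuclei, fewer cells of a type and less RNA per cell cannot be told apart.

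Hcn4 was the member with the opposite sign. In glia it had 2.81, 5.26 and 2.18 CPM in SH and 6.43, 13.8 and 12.4 CPM in KA, and the groups did not overlap. The mean was 3.42 ± 1.62 CPM in SH and 10.9 ± 3.90 CPM in KA (SD, n = 3). This gave a logFC of 1.67 (standard error 0.66, FDR 0.797). With the block the logFC was 1.70 (standard error 0.40, FDR 0.0238), and DESeq2 gave an FDR of 0.198 (365 of 37598 genes were called higher there). Without both low-input libraries it was 1.34 (FDR 1.00). In neurons Hcn4 had 0.79, 5.94 and 3.06 CPM in SH and 2.56, 9.02 and 5.996 CPM in KA, which overlap. The logFC there was 0.84 (standard error 0.65, FDR 1.00), or 1.02 with the block (FDR 0.413). It was 0.39 without SH neurons 1 or without KA neurons 2, and 1.60 without SH neurons 2. In both cell types KA exceeded SH in all 3 pairs. The counts behind these values are small, between 13 and 360 per library. The difference of the KA effect between neurons and glia was -0.83 (standard error 0.91, FDR 1.00).

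No member passed the test of a difference between the KA effects in neurons and in glia, and 0 of all genes did (edgeR, FDR below 0.25), where 502 genes (1.34%) had an unadjusted p below 0.05 and no member was among them. The difference ranged from -0.83 (Hcn4) to 0.34 (Hcn2). With single libraries left out it ran from -1.28 to -0.07 for Hcn4, the latter without SH neurons 2, and from 0.16 to 0.67 for Hcn2. With the replicate block 0 members and 0.402% of all genes passed. That block joins KA and SH libraries of the same number within each cell type. Neither fit of the difference held the pool that neurons and glia share, so a test using that pairing was not run.

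**Figure D4:**
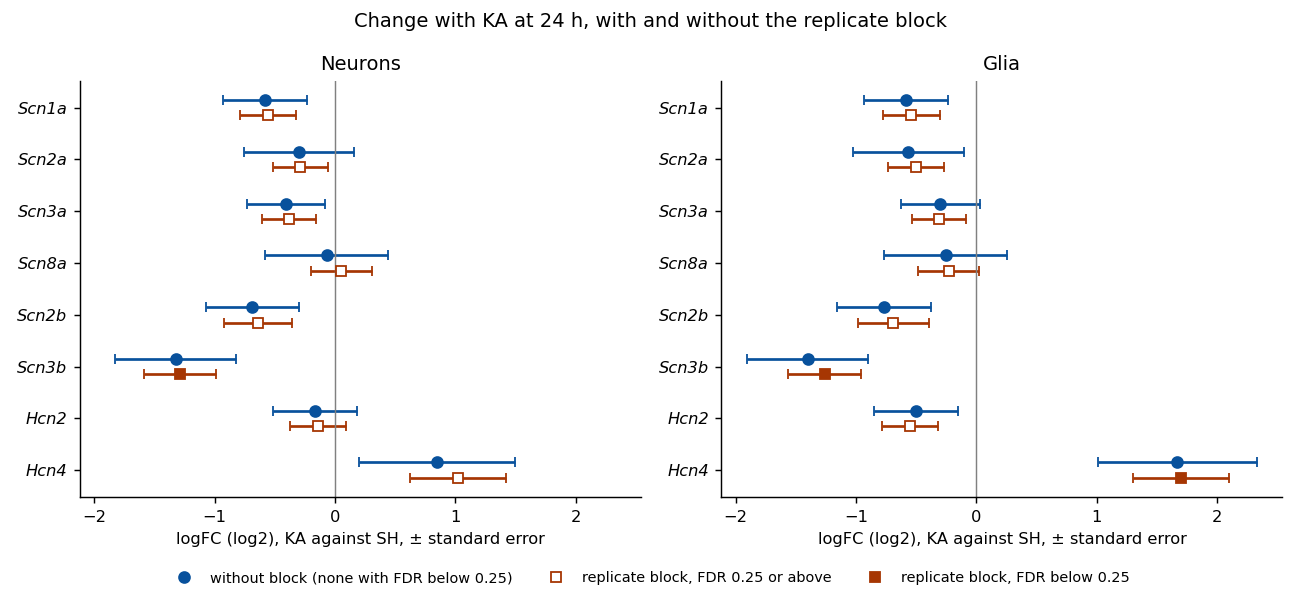
The logFC of KA against SH (log2, horizontal axis) is shown for the 8 genes in neurons (left) and glia (right), without the replicate block (circles) and with it (squares), with bars for 1 standard error. Filled squares, Scn3b in neurons at -1.29, Scn3b in glia at -1.26 and Hcn4 in glia at 1.70, passed an FDR of 0.25 with the block; no circle did.

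Marker lists of neuron types differed between SH and KA as well. In neurons the granule cell list (4 genes) summed to 501 to 692 CPM in SH and 354 to 365 CPM in KA, and the pyramidal cell list (5 genes) to 401 to 512 and 267 to 298 CPM. Neither list overlapped between the treatments. The inhibitory neuron list (8 genes) had 378 to 621 and 502 to 593 CPM and the neuronal list 6786 to 10676 and 7001 to 8734 CPM, both with overlap. Calb1 was the granule cell gene that was downregulated in both cell types (FDR 0.213 in neurons and 0.124 in glia; named after its values were seen), and no pyramidal cell gene passed. In KA neurons the astrocytic list summed to 232 to 729 CPM, against 222 to 675 CPM in SH neurons, the oligodendrocytic list to 140 to 701 against 319 to 1267 CPM, and the microglial list to 46.6 to 110 against 53.7 to 106 CPM. The part of neuron types in the values of Scn1a, Scn2a and Scn3b was not tested.

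The same pathway holds 20 further genes in 4 lists, all of them tested. None passed the test between KA and SH in neurons or in glia. In neurons their median logFC was -0.04 and 13 of 20 were negative (49.96% of all genes). In glia the median was -0.01 with 10 of 20 negative (41.4% of all genes).

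Of the 6 other alpha subunits, Scn9a, best known from sensory neurons, was lowest in neurons at a logFC of -0.74. In glia they ran from -0.24 (Scn10a) to 0.68 (Scn7a). Scn4b, a further beta subunit gene, had -0.29 in neurons and 0.52 in glia. Hcn3, a further HCN channel gene, had 0.71 in neurons (FDR 1.00) and -0.14 in glia.

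The list of partners and of the axon initial segment held 10 genes. Fgf14, which encodes a cytosolic factor that binds the tail of alpha subunits, was lowest in neurons with a logFC of -0.57 and no overlap between the treatments. It was 1 gene of 20 to lie lower in this way, near the 4.45% of all genes that did. Ank3, which encodes the ankyrin that anchors sodium channels, was highest in neurons at 0.55. In glia Fgf13, a factor of the same family, had -0.90 and Ank3 0.59. With the block Fgf13 passed in glia with a logFC of -0.78 (FDR 0.232), 1 gene of 20, where 4.17% of all genes were called lower, so the share is near that of all genes.

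Between neurons and glia, 7 of the 20 genes were higher in neurons in SH and 9 in KA, where 6.05% and 5.88% of all genes were. None was lower, as 4.67% and 3.98% of all genes were. The median logFC was 1.09 in SH and 0.99 in KA. Hcn3 had 1.51 in SH (FDR 0.0985) and 2.36 in KA (FDR 0.0107), opposite in sign to Hcn2. Of the other alpha subunits, Scn9a was higher in neurons in SH, with 1.87 (FDR 0.0107), and had 1.24 in KA (FDR 0.1). The lowest values were those of Scn10a in SH (-0.95) and Scn11a in KA (-0.71), which did not pass. Without SH glia 1, or without SH neurons 3, Scn9a was lost in SH. Scn4b had 1.38 in SH (FDR 0.0738) and 0.57 in KA (FDR 0.681).

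Among partners, Sptbn4, the spectrin of the axon initial segment, was highest at 2.79 in SH (FDR 0.00351) and 2.73 in KA (FDR 0.00424). Fgf14 (2.06 and 2.01), Nedd4l, a ubiquitin ligase of membrane channels (1.85 and 1.66), and Fgf12 (1.13 in either) were higher in neurons in both treatments, and Fgf11 (1.81) and Fgf13 (1.98) in KA. Without KA glia 1, or without KA glia 2, all 6 of these partner genes and Hcn3 were lost in KA. Over all genes, those called higher fell from 2211 to 407 and 482 in these fits. Fgf12 was lost in KA without any 1 library and in SH without any but SH glia 2, and Nedd4l in KA without any but KA glia 3 and in SH without SH glia 1, SH glia 2 or SH neurons 3. In KA, Fgf13 was also lost without KA neurons 2, and Fgf11, Fgf13 and Hcn3 without KA neurons 3. The lowest values were -1.07 for Nfasc in SH (FDR 0.261), which encodes the neurofascins of nodes and paranodes, and -1.43 in KA (FDR 0.138) for Pex5l, whose product TRIP8b binds HCN channels.

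Over the 12 libraries, log2 CPM of the 6 sodium channel genes ran together, with Pearson's r of 0.91 to 0.98 in the 15 pairs. These values mostly hold the difference between neurons and glia. Over the 6 neuron libraries they were -0.12 to 0.95 (median 0.60), with the values of Scn8a at the low end, and over the 6 glia libraries 0.71 to 0.97 (median 0.84). Hcn2 had r between -0.70 and -0.50 with the sodium channel genes over 12 libraries, and between 0.24 and 0.92 over the neuron libraries. The libraries share pools, so these are descriptions.

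Of 20345 other protein-coding genes tested, those with the most similar log2 CPM over the 12 libraries were Mas1 and Serpini1 for Scn1a (r of 0.991 each), Svop (0.998) and Gabra4 (0.995) for Scn2a, and Ano3 and Thy1 (0.995 each) for Scn3a. For Scn8a they were Sept3 (0.998) and Gnl3l (0.995), for Scn2b Slc16a11 (0.989) and Mmd (0.987), and for Scn3b Slc24a3 (0.994) and Kcnip2 (0.992). Hcn2 was most like Atp11a (0.984) and Klf15 (0.981). For Hcn4 the most similar genes were D10Wsu102e (0.913) and P2ry2 (0.911), which is less close than for the other members.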

How the data were processed

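The 12 mRNAseq libraries were used; the reduced representation bisulfite libraries were not analysed here. Per the paper's methods, the authors trimmed reads with Trim Galore, aligned them to mm10 with Rsubread and ran featureCounts with its defaults on GENCODE M16 genes. The deposited values are raw counts per gene and library, without normalization. Reads were 75 bp single or 150 bp paired, and which library had which is not stated in the sources used here.

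Counts of genes with a GENCODE M21 symbol (53274 of 53379) that passed filterByExpr (minimum count 10, total 15; 37598 genes) were scaled by TMM and fitted with edgeR 4.0.16 in R 4.3.3 (glmQLFit with legacy=TRUE, glmQLFTest), with 4 group means over 12 libraries. The methods of the study treat the cell types separately, which was an alternative here. The FDR threshold was 0.25 for KA against SH and for the difference between cell types, and 0.05 for neurons against glia. The standard error was taken as |logFC| divided by the root of the F statistic. CPM are TMM-scaled, and CPM per kb divides by exon length. The common biological coefficient of variation was 0.674. Tests were tried on simulated data that held no effect of pool or number, so that trial cannot speak for such effects here.

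Deviations of libraries with the same number from their group means correlated across genes (KA with SH: 0.399, 0.264 and 0.551 in neurons, 0.457, 0.543 and 0.764 in glia; neurons with glia of a pool: 0.293 to 0.649), so the replicate block was fitted too. The labels give the numbers; KA and SH pools are different mice, so their pairing rests on this check, while neurons and glia share a pool.

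Members and lists were chosen with earlier results of these data known. Named genes were the 8 members, genes of the 4 family lists that passed a threshold or were highest or lowest in their list, for each member the 2 most similar genes, and Rbfox3 and any marker at 0 in a group; some genes that the rule names are not reported here. Tubb3 and the percentages of the summed alpha subunits were chosen after their values were seen. Alternatives were DESeq2 1.42.0 (test and size factors), edgeR 4, other filters, gene sets and thresholds, separate models, the block, and libraries left out. Figures were drawn with matplotlib 3.10.9.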

Additional observations from a re-analysis of the deposited data

How the results depend on the processing

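With the replicate block the count of members called between KA and SH was 1 lower in neurons (Scn3b) and 1 lower (Scn3b) and 1 higher (Hcn4) in glia; between neurons and glia of a pool in KA it was 1 lower (Hcn2), and the block changed no other call of a member. Separate models gave 1 lower in neurons. In glia, DESeq2 gave 1 lower and 1 higher, and at least 10 counts in every library gave 1 lower. Leaving out single libraries gave 0 to 1 lower in glia, 5 to 6 higher and 0 to 1 lower in neurons against glia in SH, and 1 to 6 higher in KA. Without both low-input libraries 1 was higher in SH, and 0 were lower there, as without a filter. In KA, 1 was lower with at least 10 counts, DESeq2 or an FDR threshold of 0.25. Over all genes the block called 730 higher and 417 lower in neurons and 1305 and 1566 in glia. Without it, 105 and 23, and 166 and 115 were called. Separate models called 247 lower in neurons. In glia DESeq2 called 365 higher and 645 lower, and at least 10 counts called 760 lower of 18632 genes. With single libraries left out, 6 to 240 were lower in glia. Between neurons and glia, 804 to 1994 were then higher in neurons in SH and 407 to 3378 in KA.

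Signs turned for small values and, in glia, also for Ank3 (0.59 in the main fit) and Scn4b (0.52). Scn8a in neurons was 0.02 with at least 10 counts, 0.05 with the block and 0.23 without libraries numbered 3. Scn4b in glia was -0.23 without the low-input libraries, and Scn10a in glia was 0.07 in separate models. The difference of the KA effects was -0.02 (Scn1a) and -0.03 (Scn3b) with the block and 0.03 (Scn3a) without the low-input libraries, and Hcn4 in SH was 0.04 in edgeR 4. With single libraries left out, the range between KA and SH in neurons was -0.32 to 0.03 for Hcn2 and -0.38 to 0.37 for Scn8a. In glia it was -0.15 to 0.88 for Ank3, -0.70 to 0.44 for Hcn3, -1.11 to 0.32 for Scn10a and -0.78 to 0.07 for Scn8a. The difference ran from -0.28 to 0.14 (Scn1a), -0.39 to 0.35 (Scn2b), -0.27 to 0.10 (Scn3a), -0.30 to 0.52 (Scn3b) and -0.13 to 0.71 (Scn8a), and Hcn4 between neurons and glia in SH from -0.81 to 0.41. The causes were not tested. With 3 pools a group and few counts of Hcn4, small differences are not resolved.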
